A study of Mus musculus with 70 samples.

Results

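H2-K1, H2-D1, B2m and Nlrc5, 4 genes of a single pathway, were followed through 8 mouse cancer cell lines. H2-K1 and H2-D1 encode classical MHC class I heavy chains, B2m encodes their shared light chain, and Nlrc5 is a transcriptional activator of class I genes. The genes were taken by their symbols, with earlier results of these data known, and are 4 of the 35197 genes in the count table. All 4 were among the 16147 genes that passed the filter on low counts. Each line was studied in 3 conditions: left without stimulation (NS), stimulated for 48 hours with interferon beta (IFNb, 1000 activity units per mL) or stimulated for 48 hours with interferon gamma (IFNg, 100 ng per mL). B16.1 and YUMMER1.7 were labelled as melanoma lines, CT26.2 and MC38.7 as colorectal, KPC.2 and Panc02.3 as pancreatic, LLC as lung and Renca as renal cancer lines. The labels give BALB/c as the genotype of CT26.2 and Renca and C57BL/6 as that of the other 6, and all cells were grown in DMEM with serum. Each line and treatment made a group, 24 in all, with 3 libraries in 22 groups and 2 in the groups of IFNg-treated LLC and of Renca without cytokine. Nothing in the labels says whether the replicates came from separate cultures, and p-values therefore rest on a spread among libraries that could be purely technical. Doses of the cytokines cannot be matched, being stated in unlike units, and a single dose and time were used, so IFNg against IFNb compares these 2 treatments as given.

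The class I molecule carries peptides from inside the cell to its surface, where CD8+ T cells read them. Its heavy chain needs the B2m light chain to fold and to leave the endoplasmic reticulum, and a cell without B2m shows almost no class I at its surface. The heavy chain genes are highly polymorphic, and C57BL/6 and BALB/c mice carry different alleles (haplotypes b and d). Nlrc5 binds no DNA by itself; it joins the RFX, CREB/ATF and NF-Y factors that sit together on class I and B2m promoters. IFNb, a type I interferon, and IFNg, the type II interferon, bind different receptors, and both can raise class I expression. IRF1, a factor that IFNg switches on strongly, binds interferon response elements in class I promoters. Loss or low expression of class I is a known way for tumour cells to escape T cells, and interferons can restore it where the genes are intact.

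H2-K1, H2-D1 and B2m rose with both interferons in all 8 lines, and Nlrc5 rose with IFNg in all 8 and with IFNb in 7. Within a line, from 0.384% (YUMMER1.7) to 17.6% (LLC) of all tested genes rose with IFNb and from 3.89% (MC38.7) to 27.6% (B16.1) with IFNg. The IFNb count was 7 lines for B2m without replicate 3 and 6 for Nlrc5 without replicate 2. On the geometric mean over the lines, the level with IFNg was higher for H2-K1 by 9.65-fold, H2-D1 5.86-fold, B2m 5.41-fold and Nlrc5 33.7-fold. The size of the response differed widely between lines: H2-K1 went up 225-fold with IFNg in B16.1, where it started at 8.23 CPM, and 3.28-fold in MC38.7. In LLC the 2 heavy chains and B2m were higher with IFNb than with IFNg, while Nlrc5 was higher with IFNg.

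Library totals ran from 668355 estimated counts (KPC.2 with IFNb, replicate 3) to 28550816, with a median of 8644887. Levels below are TMM-scaled CPM (counts scaled to libraries of equal size, with a correction for their makeup), listed by replicate number. Together the 4 genes took from 0.0188% of a library's counts (median, unstimulated B16.1) to 1.0% (KPC.2 with IFNg). Markers of the labelled tumour types were uneven. The 7 melanocyte markers summed to between 20000 and 20400 CPM in unstimulated B16.1 but to between 18.7 and 25.5 CPM in YUMMER1.7, the other melanoma line. Epithelial markers summed to at least 1970 CPM in the unstimulated pancreatic lines, to between 29.6 and 36.5 CPM in CT26.2 and to at most 2.15 CPM in MC38.7, although both are labelled colorectal. The 10 leukocyte markers, which matter here because leukocytes are rich in class I, summed to between 44.9 and 61.3 CPM in Renca and to less in every group of the other lines.

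H2-K1 and H2-D1 lie in the MHC on chromosome 17, B2m on chromosome 2 and Nlrc5 on chromosome 8, so the 4 genes sit at 4 separate places on 3 chromosomes. In the GENCODE annotation of GRCm38, H2-K1 (ENSMUSG00000061232.16) spans chr17:33996017-34000347 on the minus strand with 16 transcripts. H2-D1 (ENSMUSG00000073411.11) spans chr17:35262730-35267499 on the plus strand with 4 transcripts. B2m (ENSMUSG00000060802.8) spans chr2:122147686-122153083 on the plus strand with 1 transcript. Nlrc5 (ENSMUSG00000074151.13) spans chr8:94434356-94527272 on the plus strand with 9 transcripts and is by far the longest, with 8493 exonic bases against 860 for B2m. The heavy chain genes share sequence with each other and with other genes: 22.8% of the 31-base stretches of H2-K1 transcripts also occur in transcripts of 38 other genes and 26.9% of those of H2-D1 in transcripts of 1325 other genes, and 358 stretches occur in both. B2m shared none of its 830 stretches and Nlrc5 0.579%. Reads from shared stretches are divided between genes by the quantifier's model, so the split between H2-K1, H2-D1 and other class I genes is less certain than their sum.

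The RefSeq promoter windows of GRCm38.p6 show what the 3 structural genes share in sequence. Each window runs from 250 bases before to 50 bases after the start of transcription and is printed 5′ to 3′ on the gene's own strand, with the matches to the motifs searched in capitals. The windows cover chr17:34000298-34000597 (minus strand) for H2-K1, chr17:35262844-35263143 (plus strand) for H2-D1 and chr2:122147437-122147736 (plus strand) for B2m; for Nlrc5 no window was used here.
H2-K1: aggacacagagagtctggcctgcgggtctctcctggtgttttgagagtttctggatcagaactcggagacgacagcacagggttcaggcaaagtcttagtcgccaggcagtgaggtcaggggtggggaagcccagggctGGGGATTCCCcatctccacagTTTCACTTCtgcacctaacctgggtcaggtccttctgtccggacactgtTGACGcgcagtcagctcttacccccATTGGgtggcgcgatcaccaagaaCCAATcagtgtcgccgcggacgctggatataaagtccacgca
H2-D1: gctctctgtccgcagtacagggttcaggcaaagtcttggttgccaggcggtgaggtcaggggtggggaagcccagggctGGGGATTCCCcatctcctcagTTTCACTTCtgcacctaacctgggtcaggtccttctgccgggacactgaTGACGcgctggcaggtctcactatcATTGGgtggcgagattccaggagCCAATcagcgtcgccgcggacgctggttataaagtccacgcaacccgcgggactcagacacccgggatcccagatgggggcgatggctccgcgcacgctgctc
B2m: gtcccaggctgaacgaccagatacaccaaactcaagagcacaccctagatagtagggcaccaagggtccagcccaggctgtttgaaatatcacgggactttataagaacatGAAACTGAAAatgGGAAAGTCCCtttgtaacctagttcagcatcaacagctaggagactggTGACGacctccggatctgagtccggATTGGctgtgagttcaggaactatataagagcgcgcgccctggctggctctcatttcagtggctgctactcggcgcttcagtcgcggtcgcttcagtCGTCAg
All 3 windows hold an NF-kB type site, an interferon response element, a short CREB site and a CCAAT box, with the first pair in the opposite order in B2m. The motifs were searched on both strands, and positions are of the first base of the match in the printed strand, counted from the start of transcription. A kappa B site, GGGG followed at once by ATTCCC, begins at -111 in H2-K1 and at -171 in H2-D1, and 0.108% of the 32544 RefSeq windows hold one. It is followed in both genes by TTTCACTTC, a match on the opposite strand to the short interferon response element GAANNGAAA, at -90 and at -150; 7.57% of windows hold that motif, which was added after the longer form had been seen to have no match in the 2 heavy chain genes. B2m carries the longer form (GAAA, any 2 bases, GAAA), in 3.45% of windows, at -139, and 10 bases of the form GGGA, any base, TTTCC on the opposite strand, a general NF-kB motif in 0.415% of windows, at -126. The short CREB site, TGACG, follows at -41 in H2-K1, -101 in H2-D1 and -78 in B2m, with a further copy at 45 in B2m on the opposite strand (20.9% of windows). CCAAT boxes, the letters that NF-Y reads, come next at -16 and 9 in H2-K1, at -76 and -53 in H2-D1 and at -53 in B2m (37.4% of windows). The motif TTCNNNGAA (8.33% of windows) and the full CREB site TGACGTCA (1.8%) are not in these windows. The H2-K1 and H2-D1 windows are 90.4% identical over 228 aligned positions and share an unbroken run of 47 bases, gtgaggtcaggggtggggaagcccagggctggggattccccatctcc, which spans the kappa B site. The RefSeq start of transcription of H2-D1 lies 364 bases inside the gene's GENCODE start, so its positions are relative to the RefSeq start only. H2-K1 has 2 RefSeq windows, and the one printed is that whose start lies nearest the gene's GENCODE start. Its positions hold for that start only, so distances from the start cannot be compared between the 2 heavy chain genes. These matches describe letters, not binding.

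Without cytokine the 4 genes ranged over very different spans between lines, and B16.1 was at the bottom for each of them. Among the 6 C57BL/6 lines the order for H2-K1 was YUMMER1.7 (638 ± 84.2 CPM, mean ± SD, n = 3), MC38.7 (441 ± 23.6), KPC.2 (267 ± 1.95), Panc02.3 (57.9 ± 12.4), LLC (14.7 ± 0.794) and B16.1 (8.23 ± 0.987). Every neighbour in that order differed (edgeR quasi-likelihood test, Benjamini-Hochberg adjusted p under 0.05, the threshold used throughout). The BALB/c lines, whose H2-K1 and H2-D1 alleles differ from those of the C57BL/6 reference and whose levels are therefore given apart, stood at 410 ± 5.28 CPM (Renca, n = 2) and 309 ± 7.28 CPM (CT26.2). For H2-D1 the order was YUMMER1.7 (989 ± 112 CPM), MC38.7 (594 ± 10.2), Panc02.3 (323 ± 6.67), LLC (248 ± 4.29), KPC.2 (191 ± 9.55) and B16.1 (64.5 ± 4.79), again with every neighbour apart, and the BALB/c lines gave 1287 ± 22.8 CPM (CT26.2) and 1027 ± 68.7 CPM (Renca). KPC.2 thus stood above Panc02.3 and LLC for H2-K1 and below both for H2-D1, and LLC held little H2-K1 beside its H2-D1.

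For B2m the order over all 8 lines was YUMMER1.7 (1751 ± 116 CPM), MC38.7 (844 ± 33.4), CT26.2 (732 ± 39.8), Renca (422 ± 20.9), KPC.2 (260.4 ± 10.0), Panc02.3 (218 ± 17.3), LLC (194 ± 5.78) and B16.1 (120 ± 3.76), with every neighbour apart. Nlrc5 covered the widest range of the 4, from 62.6 ± 9.12 CPM in YUMMER1.7 through CT26.2 (31.1 ± 3.36), MC38.7 (26.9 ± 2.74), Panc02.3 (11.7 ± 0.614), Renca (11.5 ± 1.99), LLC (4.02 ± 0.331) and KPC.2 (0.405 ± 0.162) to B16.1 (0.0762 ± 0.0668). Its transcripts were counted 8 times over the 3 unstimulated KPC.2 libraries and 2 times over the 3 of B16.1. The steps from CT26.2 to MC38.7 (adjusted p = 0.06) and from Panc02.3 to Renca (adjusted p = 0.99) did not pass. Levels of different genes were set side by side per kilobase of exon, with all annotated exons of a gene merged. This scale is rough, since the lengths of the transcripts expressed were not known and merged lengths grow with the transcripts annotated. The BALB/c heavy chain alleles also differ from the reference. On it unstimulated B2m had the highest value in every line, from 140 CPM per kilobase in B16.1 to 2040 in YUMMER1.7. In Renca it was 491, beside 398 for H2-D1. H2-D1 came next in 7 lines and H2-K1 in KPC.2 (90.9 against 74.1 CPM per kilobase), and Nlrc5 reached at most 7.37 CPM per kilobase.

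**Figure D1:**
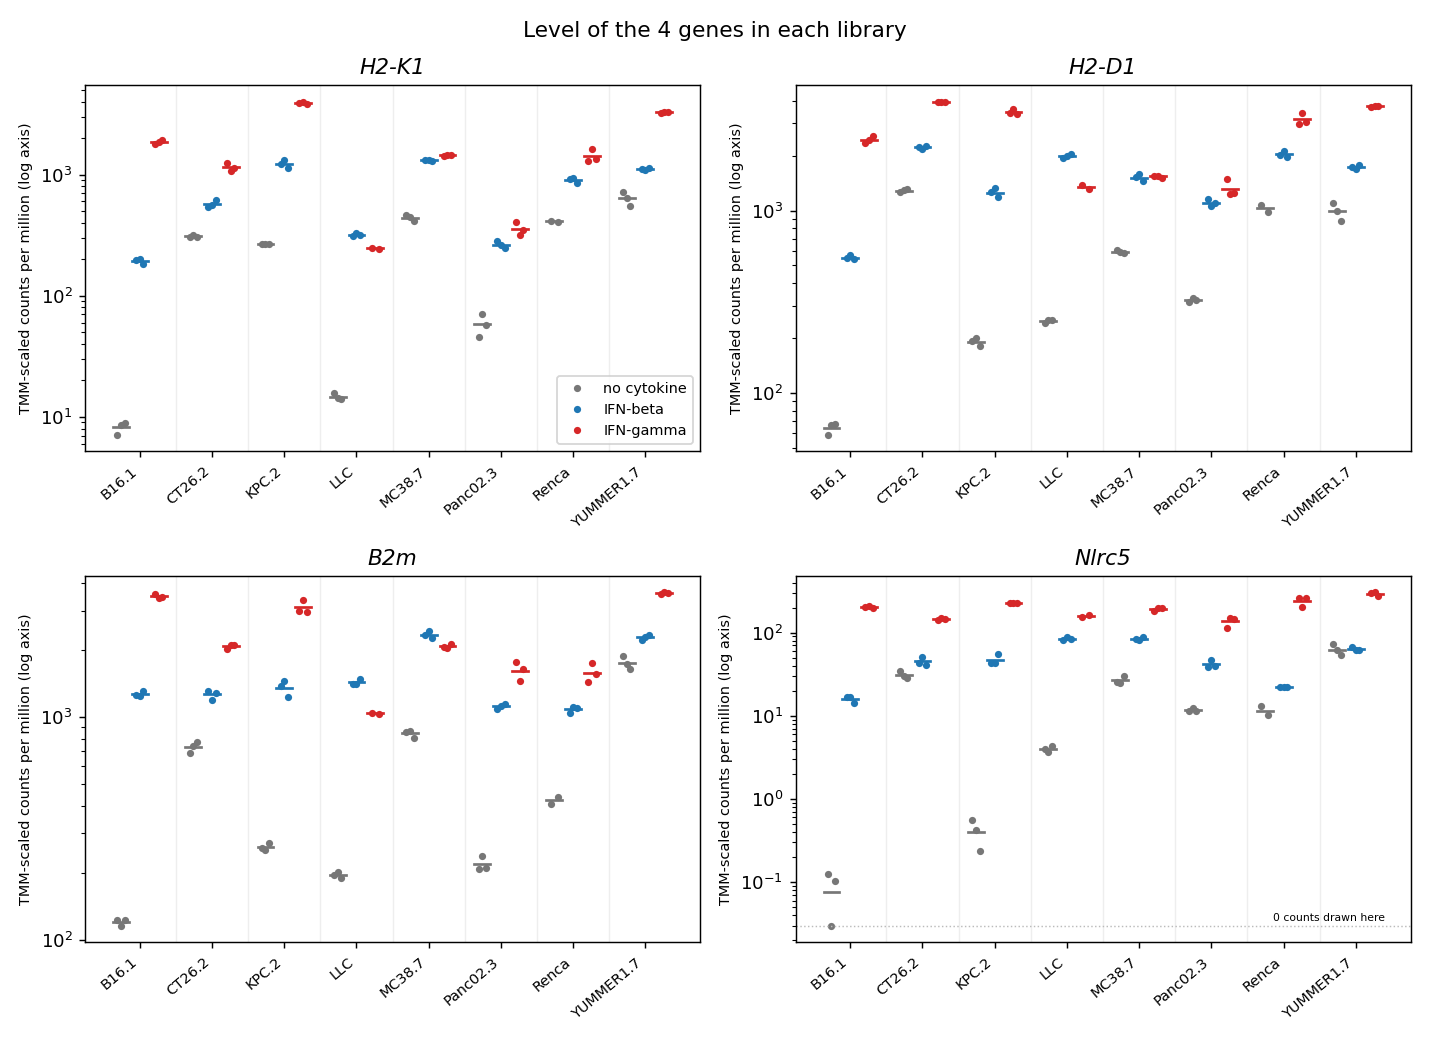
Each panel plots 1 gene and each point 1 library, as TMM-scaled CPM on a log axis, by line and treatment (grey no cytokine, blue IFNb, red IFNg), with short bars at group means. Grey points spread over a wide range between lines and red points over a narrower one, most of all for Nlrc5, and in LLC the blue points of H2-K1, H2-D1 and B2m lie above the red.

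In B16.1 melanoma cells the 4 genes went from the lowest unstimulated levels of the series to levels within the range of the other lines with IFNg. H2-K1 stood at 7.10, 8.62 and 8.95 CPM without cytokine, at 195, 199.5 and 184 with IFNb and at 1782, 1869 and 1941 with IFNg. H2-D1 stood at 58.9, 67.1 and 67.4 CPM, then 547, 569.5 and 540.3 with IFNb and 2358, 2428 and 2554 with IFNg. The library ranges of the 3 treatments lay apart for both heavy chains, as they did for B2m and Nlrc5 and for 24.3% of all tested genes in this line. B2m stood at 122, 116 and 122 CPM, 1254, 1239 and 1314 with IFNb and 3554, 3429 and 3461 with IFNg. Nlrc5 stood at 0.125, 0 and 0.104 CPM, 16.9, 16.8 and 14.2 with IFNb and 206, 206 and 195 with IFNg. The activator was thus close to undetected before stimulation. All 4 genes rose with IFNb, by 4.54 ± 0.12 (log2 fold change ± SE) for H2-K1, 3.10 ± 0.067 for H2-D1 and 3.40 ± 0.068 for B2m (edgeR adjusted p at most 9.0e-25), where 14.6% of tested genes were higher. All 4 rose with IFNg, by 7.82 ± 0.12, 5.24 ± 0.071 and 4.86 ± 0.071 (adjusted p at most 2.2e-45), where 27.6% of genes were higher. With 2 unstimulated counts, the Nlrc5 ratio was 208 for IFNb (95% exact counting interval 57.1 to 1720) and 2600 for IFNg (720 to 21500), which covers counting error only. IFNg exceeded IFNb for all 4 genes, in a line where 50.5% of genes differed between the cytokines. The melanocyte marker sum was lower with cytokine, 12600 to 13000 CPM with IFNb and 9120 to 9590 CPM with IFNg (7 of 7 markers fell with IFNb, and 6 fell and 1 rose with IFNg), and the leukocyte marker sum went from at most 2.12 CPM (7 of 10 markers at 0) to between 13 and 14.9 CPM with IFNg (4 of 10 at 0; of 4 tested, 1 rose); their part in the result was not tested.

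YUMMER1.7, the other melanoma line, showed the opposite picture, with high unstimulated levels and small changes with IFNb. Its H2-K1 level was 719.9, 641 and 552 CPM unstimulated, 1119, 1085 and 1139 with IFNb and 3246, 3303 and 3273 with IFNg. Its H2-D1 level was 1099.7, 991 and 876 CPM, 1741, 1692 and 1770.2 and 3693, 3742 and 3755, in the same order of treatments. The library ranges of the 3 treatments lay apart for both heavy chains and B2m, against 5.85% of all tested genes. Its B2m level was 1875, 1732 and 1645 CPM, 2222, 2282 and 2324 and 3557, 3629.9 and 3619.8. Its Nlrc5 level was 71.9, 62.2 and 53.7 CPM, 66.5, 62.3 and 62.3 and 298, 305 and 276. The IFNb libraries of Nlrc5 overlapped the unstimulated ones. With IFNb 3 of the 4 genes rose, H2-K1 by 0.81 ± 0.08, H2-D1 by 0.81 ± 0.058 and B2m by 0.38 ± 0.06 (adjusted p at most 2.6e-05), where 0.384% of tested genes were higher. Without replicate 3 the B2m change was 0.32 (edgeR adjusted p = 0.1). Nlrc5 differed by 0.025 ± 0.089 (adjusted p = 0.998). With IFNg all 4 rose, by 2.36 ± 0.083 (H2-K1), 1.92 ± 0.06 (H2-D1), 1.04 ± 0.06 (B2m) and 2.23 ± 0.083 (Nlrc5; adjusted p at most 9.4e-22), where 9.79% were higher. IFNg exceeded IFNb for all 4, and 16.8% of genes differed between the cytokines.

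In the pancreatic line KPC.2 the heavy chains and B2m climbed from NS to IFNb to IFNg and Nlrc5 came up from almost nothing. H2-K1 gave 265, 268 and 268 CPM unstimulated, 1232, 1314 and 1139 with IFNb and 3904, 4006 and 3819 with IFNg. H2-D1 gave 193, 199.8 and 181 CPM, 1259, 1326 and 1179.8 and 3412, 3582 and 3373. With IFNg this line held more H2-K1 than any other C57BL/6 line. B2m gave 258, 252 and 271 CPM, 1381, 1453 and 1235 and 2989.7, 3358 and 2964. Nlrc5 gave 0.556, 0.425 and 0.235 CPM, 42.7, 43.4 and 54.8 and 226, 226 and 229.5. The library ranges of the 3 treatments lay apart for all 4 genes, against 6.99% of all tested genes. All 4 rose with IFNb (H2-K1 2.21 ± 0.086, H2-D1 2.72 ± 0.065, B2m 2.39 ± 0.065, Nlrc5 6.64, edgeR adjusted p at most 1.2e-28) against 2.52% of genes. With IFNg all 4 rose again (H2-K1 3.87 ± 0.089, H2-D1 4.17 ± 0.067, B2m 3.58 ± 0.067, Nlrc5 8.996, edgeR adjusted p at most 1.1e-41) against 13.8% of genes. The Nlrc5 changes rest on 8 unstimulated counts and are given without SE, which the fit put below the counting error. As ratios they had exact 95% counting intervals of 51.2 to 238 for IFNb and 267 to 1220 for IFNg. All 4 were higher with IFNg than with IFNb, and 20% of genes differed. The epithelial marker sum was 5720 to 6140 CPM unstimulated and 9200 to 9700 CPM with IFNg, while of the 5 markers 2 rose and 2 fell (median log2 change 0.028), and its part in the result was not tested.

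In Panc02.3, the other pancreatic line, all 4 genes rose with both cytokines. Libraries of H2-K1 held 45.7, 70.6 and 57.3 CPM unstimulated, 284, 260.3 and 247 with IFNb and 408, 319 and 347 with IFNg. Libraries of H2-D1 held 317, 330.0 and 324 CPM, 1159, 1064 and 1094 and 1483, 1225 and 1249.7. The library ranges of the 3 treatments lay apart for these genes, as for B2m and Nlrc5, against 11.6% of all tested genes. B2m libraries held 207, 238 and 209.8 CPM, 1090.0, 1118 and 1138 and 1757, 1444 and 1647. Nlrc5 libraries held 11.4, 12.4 and 11.3 CPM, 38.6, 46.4 and 39.5 and 114, 149 and 147. Replicate 1 with IFNg was the highest of its group for the heavy chains and B2m and the lowest for Nlrc5. With IFNb the 4 genes rose by 2.20 ± 0.091 (H2-K1), 1.77 ± 0.06 (H2-D1), 2.35 ± 0.064 (B2m) and 1.85 ± 0.12 (Nlrc5), with adjusted p at most 2.4e-19 and 3.33% of genes higher. With IFNg they rose by 2.65 ± 0.093, 2.03 ± 0.061, 2.89 ± 0.065 and 3.54 ± 0.11 in the same order, with adjusted p at most 2.0e-32 and 23.2% of genes higher. IFNg exceeded IFNb for all 4 (H2-D1 least, 0.26 ± 0.058, adjusted p = 0.00015) in a line where 53% of genes differed.

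In LLC lung cancer cells, class I transcripts were higher with IFNb than with IFNg. Counts of H2-K1 came to 15.6, 14.3 and 14.2 CPM unstimulated, 311, 331 and 318 with IFNb and 249.8 and 242 in the 2 libraries with IFNg. Counts of H2-D1 came to 243, 251 and 249.6 CPM, 1944, 1990.0 and 2039 and 1384 and 1313. Both IFNg libraries lay below all 3 IFNb libraries for each heavy chain, and the ranges of the 3 treatments lay apart for all 4 genes, as for 24% of all tested genes. Counts of B2m came to 195, 200.3 and 189 CPM, 1406, 1409.6 and 1479 and 1042 and 1037. Counts of Nlrc5 came to 4.03, 3.68 and 4.35 CPM, 80.5, 87.8 and 82.7 and 152 and 164. B2m followed the heavy chains and Nlrc5 did not, since both of its IFNg libraries lay above its IFNb libraries. Every member rose with IFNb (H2-K1 4.45 ± 0.10, H2-D1 3.005 ± 0.062, B2m 2.88 ± 0.064, Nlrc5 4.38 ± 0.12; adjusted p at most 7.2e-39; 17.6% of genes higher) and with IFNg (H2-K1 4.07 ± 0.10, H2-D1 2.44 ± 0.065, B2m 2.42 ± 0.067, Nlrc5 5.30 ± 0.12; adjusted p at most 2.8e-37; 6.65% higher). Between the cytokines 3 genes were lower with IFNg, with log2 differences of -0.38 ± 0.09 for H2-K1 (adjusted p = 0.0007), -0.56 ± 0.065 for H2-D1 (3.3e-10) and -0.46 ± 0.067 for B2m (1.4e-07). Without replicate 3, which leaves 1 IFNg library that is assumed to vary like the other groups, the H2-K1 difference was -0.36 (edgeR adjusted p = 0.074). Nlrc5 was higher with IFNg by 0.92 ± 0.085 (2.2e-13). In this line 29.3% of genes differed between the cytokines, and 7 of the 13 other class I genes tested were also lower with IFNg and none higher. The epithelial marker sum of LLC was 293 to 321 CPM unstimulated, 126 to 128 CPM with IFNb and 255 to 260 CPM with IFNg. Of the 5 markers 3 fell with IFNb (median log2 change -1.21), and 3 were higher and 1 lower with IFNg than with IFNb. The 4 endothelial markers summed to at most 2.02 CPM, and of 2 tested 1 rose with IFNb and 1 was lower with IFNg than with IFNb. The part of these markers in the result was not tested.

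MC38.7 colorectal cells reached heavy chain levels with IFNb and IFNg that the test did not tell apart. For H2-K1 the libraries read 461, 448 and 415 CPM unstimulated, 1331, 1327 and 1291 with IFNb and 1432, 1449.8 and 1463 with IFNg. For H2-D1 they read 605, 594 and 584 CPM, 1527, 1576 and 1446 and 1549, 1552 and 1514. The 2 cytokines overlapped for H2-D1, while the ranges of the 3 treatments lay apart for the other 3 genes, against 11.4% of all tested genes. For B2m they read 856, 869 and 806 CPM, 2342, 2423 and 2258 and 2053, 2036 and 2136. For Nlrc5 they read 25.7, 25.0 and 30.0 CPM, 84.5, 81.3 and 87.7 and 183, 195 and 199. The IFNg libraries of Nlrc5 lay far above its IFNb libraries, and those of B2m below. The rises with IFNb were 1.58 ± 0.081 (H2-K1), 1.35 ± 0.059 (H2-D1), 1.47 ± 0.061 (B2m) and 1.65 ± 0.092 (Nlrc5; adjusted p at most 1.2e-22), for 4 of 4 genes against 13.8% of all. The rises with IFNg were 1.71 ± 0.081, 1.37 ± 0.059, 1.30 ± 0.06 and 2.84 ± 0.088 (adjusted p at most 1.0e-25), for 4 of 4 against 3.89%. Between the cytokines, where 28.3% of genes differed, H2-K1 (0.14 ± 0.079, adjusted p = 0.2) and H2-D1 (0.021 ± 0.058, 0.87) did not pass. B2m was lower with IFNg, with a log2 difference of -0.17 ± 0.059 (adjusted p = 0.021), and Nlrc5 was higher by 1.19 ± 0.079 (6.3e-19). The B2m difference did not pass without replicate 1, 2 or 3 (adjusted p from 0.057 to 0.081), and the sign of the H2-D1 difference varied with the scaling.

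CT26.2, the BALB/c colorectal line, held H2-D1 at 1287 ± 22.8 CPM without cytokine, beside 1027 ± 68.7 CPM in Renca, the other BALB/c line. The heavy chain alleles of both differ from the reference, so these levels are not ranked against those of the other lines. Across the CT26.2 libraries H2-K1 was 307, 317 and 303 CPM unstimulated, 538, 556 and 615 with IFNb and 1238, 1076 and 1123 with IFNg. Across the same libraries H2-D1 was 1263, 1290.0 and 1308 CPM, 2225, 2169 and 2256 and 3916, 3954 and 3940.0. The library ranges of the 3 treatments lay apart for both heavy chains, as for B2m and Nlrc5, against 1.78% of all tested genes. B2m was 689.7, 739 and 768 CPM, 1315, 1198 and 1284 and 2031, 2102 and 2099. Nlrc5 was 34.9, 29.9 and 28.5 CPM, 43.2, 51.3 and 41.0 and 140.2, 149 and 147. IFNb moved Nlrc5 little, although its treated libraries did not overlap the others. Against 1.97% of genes higher with IFNb, all 4 rose: H2-K1 by 0.88 ± 0.084, H2-D1 by 0.78 ± 0.059, B2m by 0.79 ± 0.061 and Nlrc5 by 0.53 ± 0.12 (adjusted p at most 0.0039). Without replicate 2 the Nlrc5 change was 0.43 (edgeR adjusted p = 0.13). Against 4.97% higher with IFNg, all 4 rose: H2-K1 by 1.89 ± 0.084, H2-D1 by 1.61 ± 0.059, B2m by 1.505 ± 0.062 and Nlrc5 by 2.21 ± 0.10 (adjusted p at most 8.9e-26). IFNg exceeded IFNb for all 4, against 4.02% of genes that differed in either direction.

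Renca, the BALB/c renal line, combined modest class I changes with a large Nlrc5 response to IFNg. Its 2 unstimulated libraries held H2-K1 at 414 and 406 CPM, the IFNb libraries at 913, 939 and 859 and the IFNg libraries at 1284, 1623 and 1355. They held H2-D1 at 1075 and 978 CPM, 2025, 2123 and 1976 and 2998, 3439.9 and 3049.8. Replicate 2 with IFNg was the highest of its group for both. This library also stood apart over genes as a whole, by the mean chi-square per gene between the counts of paired replicates, scaled for depth. That value was 13.3 against replicate 1 and 18.2 against replicate 3, the largest of the series, and 1.89 between replicates 1 and 3. The same groups held B2m at 408 and 437 CPM, 1044, 1105 and 1099.9 and 1441, 1749.6 and 1555. The same groups held Nlrc5 at 12.9 and 10.1 CPM, 22.4, 22.04 and 22.2 and 259, 206 and 259, with replicate 2 now the lowest of the IFNg group. The library ranges of the 3 treatments lay apart for all 4 genes, against 7.26% of all tested genes. All members rose with IFNb, H2-K1 by 1.14 ± 0.092, H2-D1 by 0.99 ± 0.067, B2m by 1.36 ± 0.07 and Nlrc5 by 0.93 ± 0.14 (adjusted p at most 3.4e-07; 7.1% of genes higher). All members rose with IFNg, H2-K1 by 1.79 ± 0.095, H2-D1 by 1.62 ± 0.068, B2m by 1.91 ± 0.072 and Nlrc5 by 4.36 ± 0.12 (adjusted p at most 2.0e-23; 6.04% higher). IFNg exceeded IFNb for all 4, where 9.44% of genes differed, by 3.44 ± 0.091 for Nlrc5 and by less than 1 log2 unit for the others. The epithelial marker sum was 711 to 746 CPM unstimulated and 1240 to 1490 CPM with IFNg, while of the 5 markers 2 rose and 1 fell, and its part in the result was not tested.

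**Figure D2:**
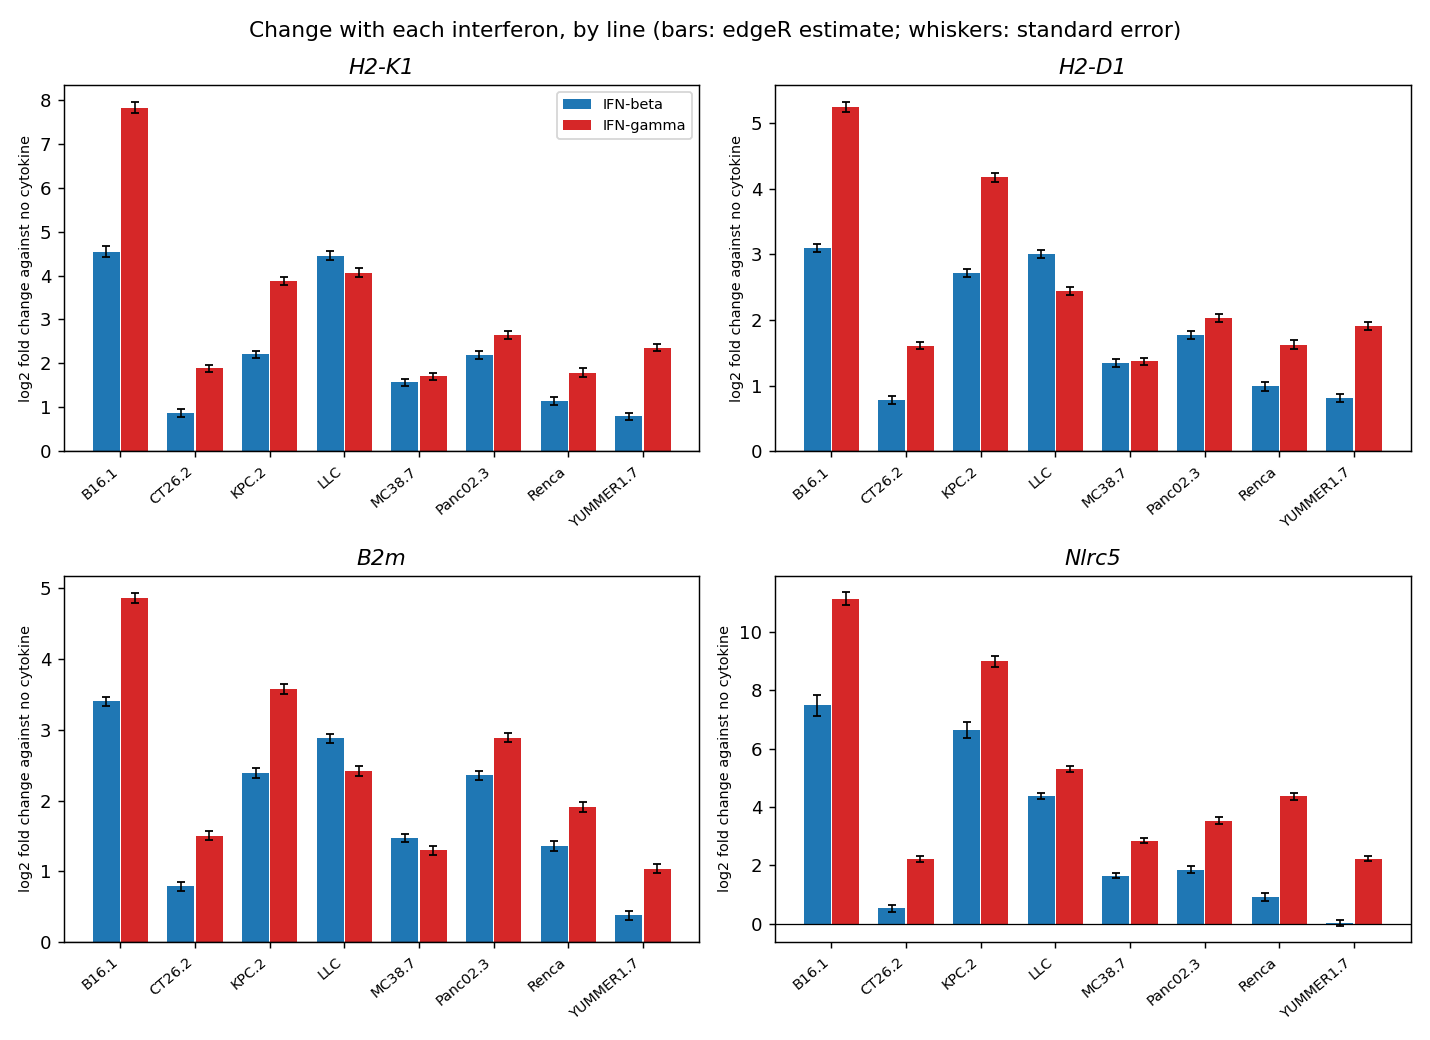
Bars give the log2 fold change against unstimulated cells of the same line for each gene (blue IFNb, red IFNg), and whiskers the standard error; each panel has its own vertical scale. The bars are tallest in B16.1 for all 4 genes with IFNg, and Nlrc5 in YUMMER1.7 has no visible IFNb bar. The Nlrc5 bars of B16.1 and KPC.2 are fitted against 2 and 8 unstimulated counts, and their whiskers understate the counting error.

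Averaged over the lines with equal weight, H2-K1 rose by 2.23 ± 0.033 with IFNb, H2-D1 by 1.82 ± 0.022, B2m by 1.88 ± 0.023 and Nlrc5 by 2.94 (log2 fold change ± SE between libraries, edgeR adjusted p at most 3.3e-43). The Nlrc5 rises are given without SE, because unstimulated B16.1 and KPC.2 held 2 and 8 counts and the fitted SE understates their counting error. On that mean 13% of the 16147 genes were higher and 17.3% lower. The rises with IFNg were 3.27 ± 0.034, 2.55 ± 0.023, 2.44 ± 0.023 and 5.08 in the same order (edgeR adjusted p at most 1.8e-60), with 18.3% of genes higher and 23.7% lower. By size of the mean rise with IFNg, Nlrc5 ranked 46th of 16147 genes, H2-K1 130th, H2-D1 208th and B2m 222nd. The mean change of the activator was the largest of the 4 with either cytokine; differences between genes were not tested. With B16.1 unstimulated Nlrc5 set to a floor of 3 counts over the group, the mean rise of Nlrc5 was 2.89 with IFNb and 5.03 with IFNg. Over the other 7 lines, without B16.1, the mean rise of Nlrc5 was 2.31 with IFNb and 4.22 with IFNg, and that of H2-K1 with IFNg was 2.63. With the counts of all class I heavy chain genes summed to 1 row, which sets aside only the split of reads among class I genes, the mean rise was 1.57 with IFNb and 2.47 with IFNg. IFNg exceeded IFNb by 1.04 ± 0.029 for H2-K1, 0.74 ± 0.021 for H2-D1, 0.56 ± 0.021 for B2m and 2.14 ± 0.033 for Nlrc5 (adjusted p at most 2.3e-30), where 36.6% of genes differed.

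The lines did not respond alike. An F test that the 8 within-line changes were equal passed for all 4 genes with IFNb, with IFNg and between the cytokines (edgeR adjusted p at most 2.1e-27 over the 12 tests). It also passed for 48.2% of all genes with IFNb, 69.2% with IFNg and 70.1% between the cytokines, so a difference between lines was common. Across the 8 lines the IFNg changes of the 6 pairs of members had Pearson's r from 0.888 (H2-K1 with B2m) to 0.966 (H2-D1 with Nlrc5) and Spearman's rho from 0.714 (H2-K1 with Nlrc5) to 0.952 (H2-K1 with H2-D1). With IFNb r ran from 0.80 (H2-K1 with Nlrc5) to 0.942 (H2-D1 with B2m) and rho from 0.952 (H2-D1 with Nlrc5) to 1 (H2-K1 with B2m). These are descriptions over 8 points, in which all genes of a line share its libraries and its unstimulated group, and the Nlrc5 change of B16.1 rests on 2 unstimulated counts.

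**Figure D3:**
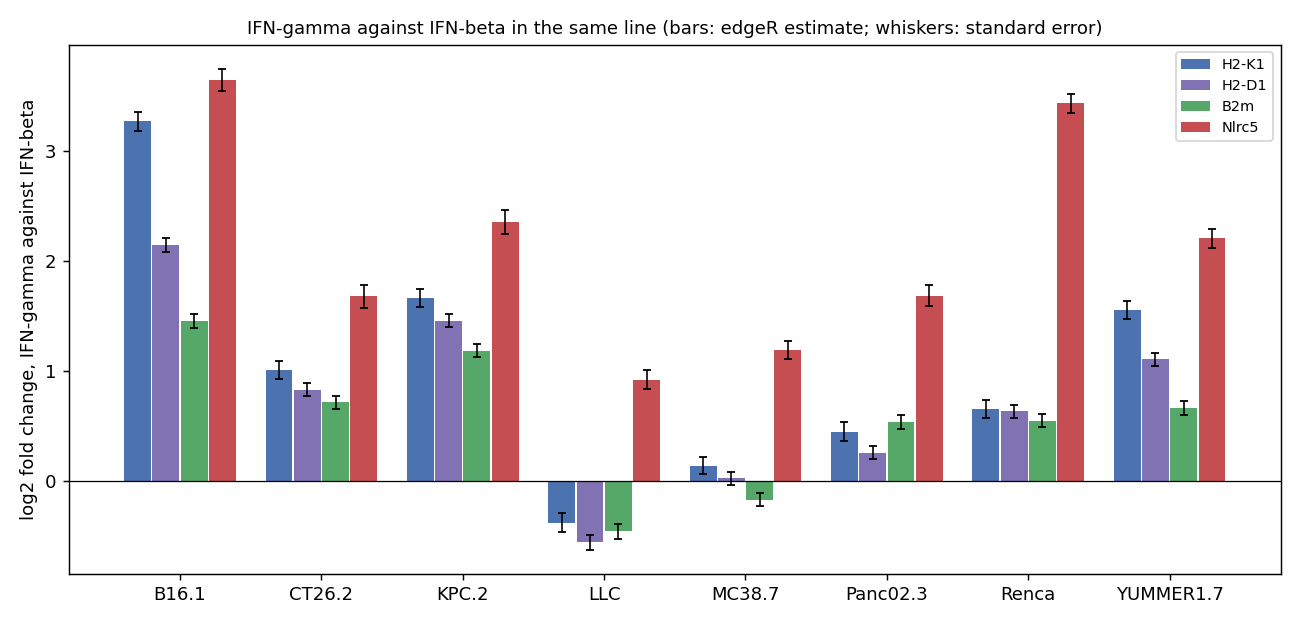
Bars give the log2 fold change of IFNg against IFNb in the same line for H2-K1 (blue), H2-D1 (violet), B2m (green) and Nlrc5 (red), with standard errors. Nlrc5 lies above 0 in all 8 lines, while H2-K1, H2-D1 and B2m lie below 0 in LLC and close to 0 in MC38.7.

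With IFNg the fold range between lines was narrower than without cytokine for all 4 genes, most of all for Nlrc5, whose unstimulated low end is 2 counts in B16.1. Unstimulated levels ran from 8.23 to 638 CPM for H2-K1 and from 64.5 to 989 CPM for H2-D1 among the C57BL/6 lines. For B2m they ran from 120 to 1751 CPM over all lines. Nlrc5 with IFNg ran only from 136 ± 19.7 CPM in Panc02.3 to 293 ± 15.1 CPM in YUMMER1.7 (mean ± SD, n = 3 each), and 5 of the 7 steps in its order did not pass. H2-K1 kept a wider range with IFNg, from 246 ± 5.62 CPM in LLC (n = 2) to 3909 ± 93.7 CPM in KPC.2. H2-D1 with IFNg ran from 1319 ± 142 CPM in Panc02.3 to 3730 ± 32.6 CPM in YUMMER1.7 among the C57BL/6 lines, where YUMMER1.7 and KPC.2 (adjusted p = 0.087) and LLC and Panc02.3 (0.73) did not differ beyond the test. The BALB/c lines stood at 3937 ± 19.3 CPM (CT26.2) and 3163 ± 241 CPM (Renca). B2m with IFNg ran from 1039 ± 3.51 CPM in LLC to 3602 ± 39.3 CPM in YUMMER1.7, and B16.1, lowest of all unstimulated, came next to the top at 3481 ± 64.8 CPM (adjusted p against YUMMER1.7 = 0.48). With IFNb, 5 lines lay between 1083 and 1356 CPM for B2m. Over all members and treatments 55 of 78 neighbouring pairs differed, a share close to the 67.6% found for all genes in the same pairs of lines.

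The 2 heavy chains did not move by equal amounts. The ratio of H2-K1 to H2-D1 counts went from 0.127 in unstimulated B16.1 to 0.349 with IFNb and 0.762 with IFNg (means of 3 libraries), and from 0.0593 in unstimulated LLC to 0.161 and 0.182. KPC.2 went the other way, from 1.40 unstimulated to 0.979 with IFNb and 1.13 with IFNg. On the mean over lines the ratio was 1.33-fold higher with IFNb (higher in 6 of 8 lines; permutation test within lines, 2-sided, 100000 resamples, adjusted over 6 ratio tests p = 0.0012) and 1.65-fold higher with IFNg (7 of 8 lines; adjusted p = 6.0e-05). With IFNg it was above its IFNb value in 8 of 8 lines, 1.24-fold on the mean (adjusted p = 6.0e-05; its permutation p of 1e-05 was the smallest the test can give). Counts of lines give the sign of each line's mean log2 ratio, which was not tested line by line, and in Renca the IFNg libraries (0.428 to 0.472) overlapped those with IFNb (0.435 to 0.451). With the median over lines in place of the mean, the log2 change was 0.19 with IFNb (mean 0.41), 0.40 with IFNg (mean 0.72) and 0.18 from IFNb to IFNg (mean 0.31; permutation adjusted p at most 0.0087). The largest changes were those of B16.1 (1.46 and 2.58) and LLC (1.44 and 1.62) with IFNb and IFNg. Because the 2 genes share sequence, part of their ratio depends on how shared reads were divided.

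Relative to the heavy chains, the light chain was higher in 4 lines and lower in 4 with IFNb, and lower in 6 with IFNg, by the sign of each line's mean. B2m counts per heavy chain count (H2-K1 plus H2-D1) went from 1.66 in unstimulated B16.1 to 0.809 with IFNg, with 1.61 to 1.82 in the IFNb libraries, and in YUMMER1.7 from 1.08 to 0.799 and 0.514. Panc02.3 went from 0.573 to 0.816 and 0.965, and Renca from 0.295 (n = 2) to 0.368 and 0.345. Over the lines the log2 ratio changed by 0.016 with IFNb (4 lines higher, 4 lower; permutation adjusted p = 0.74) and by -0.27 with IFNg (6 of 8 lines lower; permutation adjusted p = 0.0092). Without all libraries of replicate 1 the latter was -0.25 (permutation adjusted p = 0.063), which does not pass. From IFNb to IFNg it changed by -0.28 (6 of 8 lines lower; permutation adjusted p = 0.00018).

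**Figure D4:**
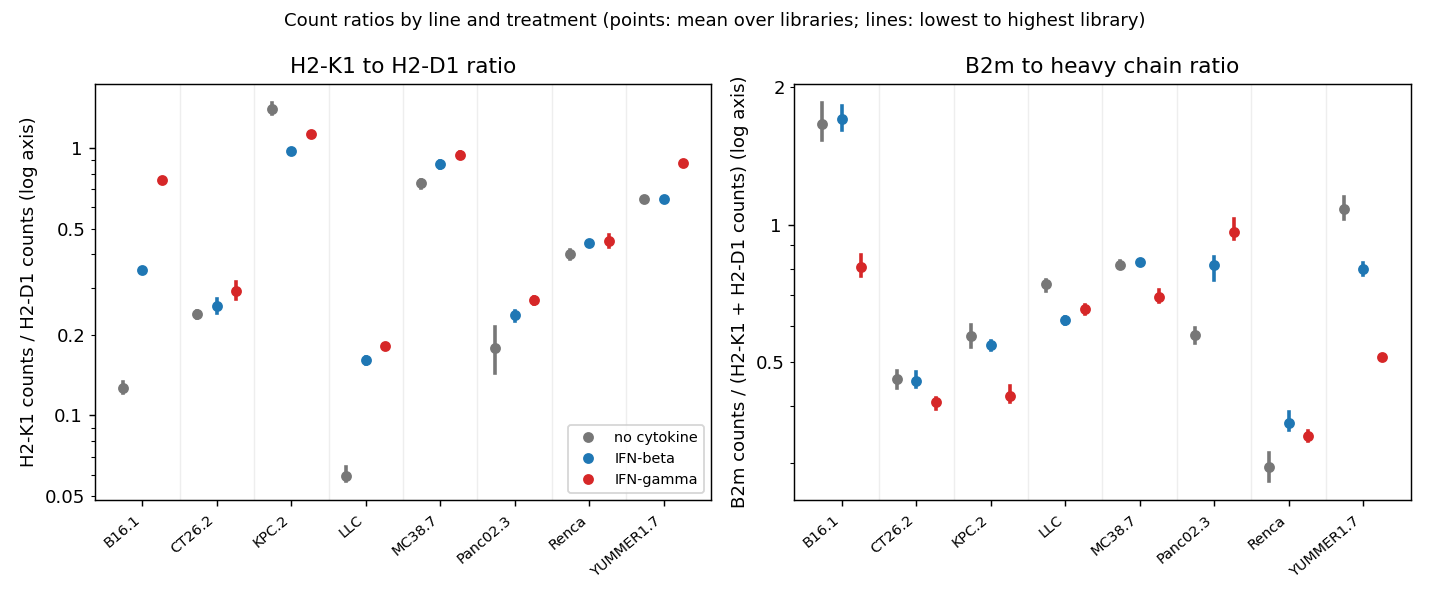
The left panel plots H2-K1 counts per H2-D1 count and the right panel B2m counts per heavy chain count, on log axes, by line and treatment (grey no cytokine, blue IFNb, red IFNg); points are means and vertical lines run from the lowest to the highest library. In B16.1 and LLC the H2-K1 share climbs from grey to red, and in B16.1 and YUMMER1.7 the B2m share drops with IFNg.

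On the mean over lines, most genes that cut, carry and load the peptides rose beside the 4. Of 8 transport and loading genes, 6 rose with IFNb on the mean over lines and none fell, and 6 rose with IFNg and 1 fell. Of all tested genes, 13% rose and 17.3% fell with IFNb, and 18.3% rose and 23.7% fell with IFNg. Tap1, which with Tap2 forms the peptide pump, rose most (2.72 ± 0.042 with IFNb, 4.69 ± 0.038 with IFNg, log2 fold change ± SE), and Canx, a general chaperone of the endoplasmic reticulum, was at the bottom of the list (-0.033 ± 0.024, adjusted p = 0.35, and -0.074 ± 0.024, adjusted p = 0.0086). The list's median was 0.86 with IFNb and 2.41 with IFNg, beside -0.017 and -0.037 for all genes. The rise was not uniform within lines. In B16.1 2 of the 8 genes fell with each cytokine, while 5 rose with IFNb and 6 with IFNg. In Panc02.3 3 fell and 5 rose with IFNg. Of all tested genes, 14.6% (IFNb) and 27.6% (IFNg) rose in B16.1 and 23.2% in Panc02.3 with IFNg. Of 8 proteasome genes 5 rose with IFNb and 8 with IFNg, none fell, and the medians were 0.87 and 2.13. The immunoproteasome subunit Psmb8 rose by 3.24 ± 0.16 with IFNb (Psmb9 by 3.10 ± 0.097), while Psmb9 rose by 6.35 ± 0.056 with IFNg (Psmb8 by 6.17 ± 0.067). Psmb8 and Psmb9 were not tested against each other, and their standard errors were the largest of the list with both cytokines. A group of 3 counts or fewer was present for 2 of the 8 proteasome genes, whose mean changes are therefore uncertain in size, beyond what their standard errors show. With such groups set to 3 counts, the proteasome medians were 0.88 (IFNb) and 2.14 (IFNg). The constitutive subunits Psmb5, Psmb6 and Psmb7 were at the bottom, Psmb5 with IFNb (-0.058 ± 0.030, adjusted p = 0.15) and Psmb7 with IFNg (0.087 ± 0.022).

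The less polymorphic relatives of the heavy chains rose too. Of the 15 other class I genes listed, 13 could be tested; 9 rose with either cytokine and none fell, where 13% and 18.3% of all genes rose, with medians of 1.37 (IFNb) and 2.64 (IFNg). Of the 13, 8 had a group of 3 counts or fewer, and with such groups set to 3 counts the medians were 0.99 and 2.57. H2-Q4 led the list with 2.53 ± 0.045 and 3.76 ± 0.042. On the mean over lines H2-Q1, H2-Q2, H2-M2 and H2-T3 did not pass with either cytokine, and their fitted mean changes are not given because they had groups at or near 0 counts. Within the BALB/c lines H2-Q2 did rise, by 0.94 ± 0.11 with IFNb and 2.07 ± 0.10 with IFNg in CT26.2 and by 1.16 ± 0.099 and 1.73 ± 0.099 in Renca. Reads of these genes can be exchanged with those of H2-K1 and H2-D1.

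Of 17 factors known to act on class I transcription, 5 rose and 3 fell with IFNb, where 13% of all genes rose and 17.3% fell, and 10 rose and 3 fell with IFNg, where 18.3% rose and 23.7% fell. The share of this list that fell was thus near or below that of all genes. Irf1, which binds interferon response elements, rose by 0.76 ± 0.028 with IFNb and by 3.80 ± 0.025 with IFNg, and Irf9, the DNA-binding part of the IFNb-activated complex, by 1.90 ± 0.033 with IFNb and 1.87 ± 0.033 with IFNg. With IFNg the leader was Ciita, the class II relative of Nlrc5, at 4.67 ± 0.40, from levels at or near 0; it reached 215 CPM in KPC.2 and 29.7 CPM in Renca and at most 4.52 CPM in the other lines. With IFNb Ciita was also the lowest of the list (-0.97 ± 0.53, adjusted p = 0.19), with at most 0.351 CPM in any line. Rfxank, a subunit of the RFX complex and the lowest with IFNg, fell by 0.18 ± 0.052 (adjusted p = 0.0031). With IFNb the genes that fell were Rfxank, Rfxap and Creb1, by at most 0.28 in size, and with IFNg they were Rfxank, Creb1 and Nfya. Irf8 had groups at 0 counts and its fit is not given. The medians of the list were 0.027 and 0.27. In YUMMER1.7 with IFNb no transport and loading gene and no regulator passed the test, and 1 of 8 proteasome genes and 3 of 13 other class I genes rose, beside 3 of the 4 members and 0.384% of all genes. Each of these genes was tested within the same fit as the members, and the lists are described by count only.

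**Figure D5:**
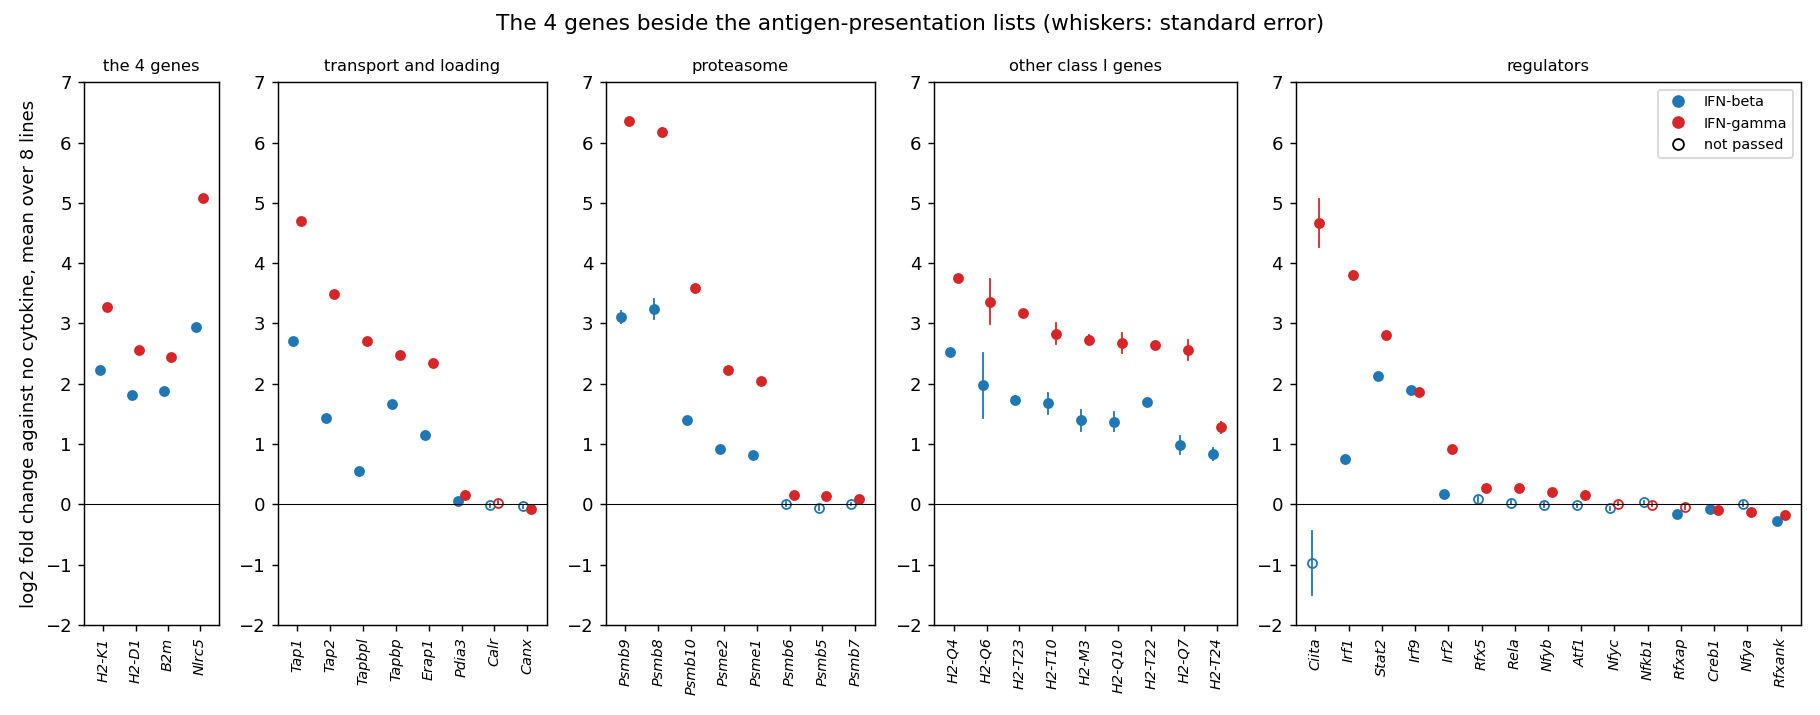
Points give the log2 fold change on the mean over 8 lines for the 4 genes and for genes of each list (blue IFNb, red IFNg), with standard errors, and open points did not pass the test. For genes with few counts in a group, Nlrc5 among them, the whiskers can understate the counting error. H2-Q1, H2-Q2, H2-M2, H2-T3 and Irf8 are left out because their standard error exceeded 1. Immunoproteasome and Tap genes rise with the 4 genes, while the constitutive subunits and the RFX, NF-Y and CREB factors stay near 0.

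Genes most like each member were taken as the 5 with the highest Pearson correlation of log2 CPM over the 24 group means, among the 16147 genes. For H2-K1 they were B2m (r = 0.890), H2-D1 (0.867), Rnf19b (0.865), H2-Q4 (0.861) and H2-T10 (0.839). For H2-D1 they were Psmb9 (0.928), Nlrc5 (0.913), Zbp1 (0.904), Tap1 (0.896) and Tap2 (0.894). B2m was most like Trim21 (0.895), Nlrc5 (0.894), Zbp1 (0.894), Ifi47 (0.891) and H2-K1 (0.890). Nlrc5 was most like H2-D1 (0.913), Psmb9 (0.906), B2m (0.894), Igtp (0.887) and Tap1 (0.885). Nlrc5 was thus among the first 5 for H2-D1 and B2m and ranked 21st for H2-K1 (0.779). By Spearman's rho it ranked 19th for H2-K1 (0.769), 20th for H2-D1 (0.830) and 12th for B2m (0.855). After the mean of each line was subtracted, which leaves the response alone, H2-D1 and B2m came first for each other (0.982), H2-D1 came first for H2-K1 (0.981) and Tap1 came first for Nlrc5 (0.964). By Spearman's rho after the same subtraction H2-K1 and H2-D1 came first for each other (0.990), H2-Q4 for B2m (0.958) and Tap1 for Nlrc5 (0.984), and B2m came 7th for H2-D1 (0.957). These values describe 24 groups that share lines and libraries, and say nothing of shared control.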

How the data were processed

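RNA was sequenced from 8 mouse cancer cell lines in 3 conditions, giving 70 libraries in 24 groups taken from the labels. The authors deposited whole-number estimated counts per gene, made with Trimmomatic 0.36 and kallisto on mm10 per the submitters' processing notes; how transcripts were summed to genes is not given in the sources used here. A pseudoaligner divides reads of near-identical class I genes by a model, on the C57BL/6 reference.

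The estimated counts were fitted in edgeR 4.0.16 (R 4.3.3) with TMM factors, the filterByExpr filter (16147 of 35197 genes kept) and 1 quasi-likelihood model of 24 groups. Standard errors are the log2 change divided by the square root of F. Where a compared group held few counts they can be smaller than the counting error, as for Nlrc5 in B16.1 and KPC.2 against NS. P-values were Benjamini-Hochberg adjusted over all tested genes, with 0.05 as the threshold. Ratios of members were tested by permuting treatments within lines. On simulated counts for B16.1 with IFNg against NS, over 16147 genes, 191 of 200 genes changed 2-fold were called, with 7 false calls. The changed genes were drawn from those above a set level in unstimulated B16.1, and all genes were given the same spread between replicates. These figures therefore do not cover genes with few counts, such as Nlrc5 in that group, or groups with a wider spread. DESeq2 1.42.0, limma 3.58.1, other scalings, no filter, single-line fits, a replicate block and left-out libraries were alternatives. The lowest library total was 668355 counts (KPC.2 with IFNb). Intervals and the floor of 3 counts cover counting error only.

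All 4 members are named, with the genes of largest and smallest mean change in each list; H2-Q2, Irf1, Irf9, Psmb5, Psmb6, Rfxap, Creb1 and Nfya were named after their values were seen. A further gene of the regulator list is counted but not reported here. The members and lists were chosen with earlier results of these data known. No 2 libraries of a group held identical values. Gene positions are from GENCODE M21 and promoter windows from RefSeq (3 of 4 members matched).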

Additional observations from a re-analysis of the deposited data

Results flagged for a closer look

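The change with cytokine differed between the 8 lines for all 4 genes (F tests within the 24-group edgeR model). For IFNb against unstimulated cells F was 228.2 for H2-K1, 263.7 for H2-D1, 284.4 for B2m and 196.2 for Nlrc5. For IFNg against unstimulated cells F was 378.1 for H2-K1, 491.1 for H2-D1, 421.5 for B2m and 234.4 for Nlrc5. For IFNg against IFNb F was 176.3 for H2-K1, 193.3 for H2-D1, 101.4 for B2m and 112.7 for Nlrc5. The largest adjusted p of the 12 was 2.1e-27. Such a difference was also found for 48.2%, 69.2% and 70.1% of all tested genes in the 3 comparisons.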

How the results depend on the processing

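Of 1632 values recomputed under alternatives, 1612 were scored as the same, and 133 of 143 results were so in every alternative. A change or ratio was the same if it kept its direction and its side of the threshold. An F test had only to keep its side. Counts of lines or pairs could move by a small fold and still be scored as the same. The IFNb counts of B2m and Nlrc5 and the neighbouring pairs, given below, did so. Without replicate 1, 2 or 3, the change of the B2m to heavy chain ratio with IFNg ranged from -0.29 to -0.25 (permutation adjusted p 0.063 without replicate 1 and 0.0503 without replicate 3). In the same settings the number of lines lower with IFNg than with IFNb ranged from 0 to 1 for H2-K1 (1 with all libraries; without replicate 1 or 3 LLC has 1 IFNg library, assumed to vary like the other groups) and was 1 each time for B2m (2 with all libraries). Over all alternatives, the number of lines that rose with IFNb ranged from 7 to 8 for B2m (8 with all libraries) and from 6 to 7 for Nlrc5 (7), and 49 to 61 neighbouring pairs of lines differed (55). Nlrc5 in YUMMER1.7 with IFNb was 0.025 in the full fit and ranged from -0.065 to 0.14 without replicate 1, 2 or 3. H2-D1 in MC38.7, IFNg against IFNb, was 0.021 in the full fit, -0.00043 to 0.019 without replicate 1, 2 or 3, -0.041 with RLE factors, -0.0024 with total counts, -0.0054 without a filter, -0.041 with DESeq2 and -0.041 when that line was fitted alone, passing in none. Without the BALB/c lines the B2m to heavy chain change with IFNb was -0.030. The cause was not tested in these cases; leaving out a replicate also leaves fewer libraries.

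Replicate numbers showed no clear pairing over all lines. Same-numbered libraries of a line had a median correlation of 0.0109 in their deviations, beside -0.0051 for libraries of unlike number. In LLC the same-numbered pairs ran from 0.0111 to 0.123 and the others from -0.123 to 0.0555, so pairing within single lines was not settled. With the replicate block the mean rise of H2-K1 was 2.23 with IFNb and 3.27 with IFNg, and it changed no call among the members. By the mean log2 TMM factors of the groups, TMM shifted the log2 changes of all genes alike against total counts. The shift was over 0.1 only in KPC.2, at 0.103 for IFNg against NS and 0.129 for IFNg against IFNb. Depth limits Nlrc5 in unstimulated B16.1 and KPC.2, with 2 and 8 counts.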
